A study of Mus musculus with 32 samples.

Results

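The vascular coagulation and fibrinolysis genes followed across all 8 sample groups were F3, F8, Vwf, Thbd, Procr, Tfpi, Plat, Plau and Plaur. Members were the probes whose gene name in the scanner output is one of these symbols. They came to 13 of the 55681 probes, and all 9 genes were measured, of 34821 distinct names in the gene name column. F3 and F8 had 2 probes each, Tfpi had 3 and the other genes had 1. The arrays measured mRNA in cells cultured from mouse liver and in tumor cells. Endothelial, Ito (hepatic stellate) and Kupffer (resident macrophage) cells were isolated from livers of male BALB/c mice aged 6 to 8 weeks, 14 days after C26 colon carcinoma cells (tumor microenvironment, TME) or saline (control) had been injected into the spleen. The cells were cultured for at most 24 h. The groups are EC and ET (control and TME endothelial cells), IC and IT (Ito cells), KC and KT (Kupffer cells), TM (tumor liver metastasis cells) and TP (CRC primary cells), with 4 samples in each. Control and TM samples carried the dye Cy3, and TME and TP samples Cy5, on every array, so dye and group cannot be told apart in the TME minus control and TP minus TM differences.

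Clotting starts when tissue factor, the product of F3, meets plasma factor VII, and it is checked by tissue factor pathway inhibitor (Tfpi). Factor VIII (F8) speeds up thrombin formation and is carried in plasma by von Willebrand factor (Vwf), which also tethers platelets. Thrombomodulin (Thbd) and the endothelial protein C receptor (Procr) turn thrombin towards activating the anticoagulant protein C. Clots are dissolved by plasmin, which is released from plasminogen by tissue-type (Plat) and urokinase-type (Plau) activators, the latter acting on its receptor (Plaur). Liver sinusoidal endothelium is known as a main source of factor VIII and as an endothelium with little Vwf.

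The probe positions in the mouse build mm9 were chr3:121437717-121437776 for F3 probe A_55_P1971889 and chr3:121434609-121435346 for F3 probe A_65_P08971, whose 60 bases are spread over 738 bases of genome. The F8 probes lay at chrX:72455821-72456709 (A_51_P289239, 60 bases over 889 bases of genome) and chrX:72577870-72577929 (A_55_P2072493). The Tfpi probes lay at chr2:84273059-84273118 (A_66_P132295), chr2:84281022-84281081 (A_52_P670263) and chr2:84284179-84284238 (A_55_P2095360). The single probes lay at chr6:125636551-125636610 for Vwf, chr2:148230235-148230294 for Thbd, chr2:155580945-155581004 for Procr, chr8:23892531-23892590 for Plat, chr14:21662242-21662301 for Plau and chr7:25260569-25260628 for Plaur. Exon and UTR annotation of this build was not used here. The F3 probe that spans 738 bases and both F8 probes are shown because the results on these genes rest on comparing their probes; they are written 5′ to 3′ as in the scanner output.
F3 A_65_P08971: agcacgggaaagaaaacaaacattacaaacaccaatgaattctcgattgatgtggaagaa
F8 A_51_P289239: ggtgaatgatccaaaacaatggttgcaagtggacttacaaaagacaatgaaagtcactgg
F8 A_55_P2072493: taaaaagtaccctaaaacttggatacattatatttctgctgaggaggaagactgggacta
Probes of the same gene followed each other across the 32 samples, with Pearson's r of 0.82 for F3, 0.95 for F8 and 0.92 to 0.95 for Tfpi, as a description of probes that share samples.

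Levels are given as log2 of the deposited normalized intensity. The call threshold was a Benjamini-Hochberg adjusted p under 0.05 in a limma fit of all 55681 probes and 32 samples, with no minimum fold. The share of spots above background ranged from 38.4 to 57.1% over the samples, with 0 spots saturated. Of the 13 member probes, 10 were well above background in all 24 liver cell samples, and 6 in all 32 samples.

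Some libraries stood apart. On array number 4 of the Ito cells and array number 4 of the Kupffer cells, the TME minus control differences ran against those of the other arrays (r = -0.66 and -0.60 over 17104 probes well above background in every sample). For example, S100a8, a neutrophil gene, stood at 8.58, 8.50, 8.42 and 12.04 in IC replicates 1 to 4 and at 12.12, 11.88, 11.44 and 8.42 in IT replicates 1 to 4. The libraries are named by their labels throughout. IT replicate 2 had the highest summed level of 8 epithelial genes, 17.23 on the log2 scale against 12.20 to 12.35 in the other IT samples, and the lowest of 9 macrophage genes, 14.48 against 16.62 to 18.44. KC replicate 3 had 44.6% of its spots above background, against 52.0 to 53.4% in the other KC samples. TM replicates 2 and 3 had the macrophage gene Emr1 at 3.13 and 2.24, against 8.77 and 8.69 in TM replicates 1 and 4, and a summed level of 6 cycling genes of 11.89 and 12.59 against 15.20 and 14.57. ET replicate 2 had a summed level of the epithelial genes of 13.55 against 11.12 to 11.20 in the other ET samples, of 5 erythrocyte genes of 14.52 against 8.31 to 9.93, and of 10 hepatocyte genes of 14.53 against 13.26 to 13.34. The epithelial sums rest on part of the list, with 4 of the 8 genes well above background in IT replicate 2 and in ET replicate 2. Krt7, Epcam and Cldn4 were at background in every IT and ET sample, and Cldn7 in every IT sample. Below, "the reduced set" is the fit without 8 of these libraries (Ito and Kupffer number 4 in both channels, IT replicate 2, KC replicate 3, TM replicates 2 and 3), a choice made after seeing the data. It leaves 2 or 3 samples in some groups. Array number 4 of Ito and of Kupffer cells was left out for the direction of its TME minus control differences. The reduced set's p-values for IT minus IC, KT minus KC and their interactions follow that choice, so they are descriptive and not a separate test. The reduced set keeps ET replicate 2, and values without that sample are given where ET minus EC is described.

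The cell labels held only in part. The 12 endothelial and 9 macrophage markers were well above background in at least 1 sample of every liver group. In EC minus IC 3 endothelial markers were higher and 1 lower, where 9.89% of all probes were called. In KC minus EC 5 of 9 macrophage markers were higher and 1 lower (21.0% of all probes). In KC minus IC 0 were higher and 1 lower (14.8%). Of the 11 stellate markers 10, 10, 11 and 11 were well above background in IC replicates 1 to 4. None of the 11 was higher in IC than EC and 2 were lower. Of the 10 hepatocyte markers 7 were lower in EC than IC. In TM and TP, 6 and 7 endothelial markers were at background in every sample. In such bulk samples, fewer cells of a type and less RNA per cell cannot be told apart.

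In the TME, the only member called was Vwf, which was higher in endothelial cells. The count was 1 of 13 probes for ET minus EC, where 1.14% of all probes were called, 0 of 13 for IT minus IC, with 0.289% of all probes called, and 0 of 13 for KT minus KC, with 0.436% called. At an unadjusted p under 0.05 limma gave 2, 1 and 0 member probes in these comparisons, where 7.71, 9.88 and 7.37% of all probes passed that threshold. The groups did not overlap for 6 probes that were higher in ET (this held for 7.05% of all probes) and 3 that were lower (6.0% of all probes). They overlapped for all 13 in IT minus IC (6.45% of all probes were higher and 2.47% lower without overlap), and 1 of 13 was higher without overlap in KT minus KC (3.69% of all probes higher and 3.36% lower). In the reduced set the counts were 5, 3 and 4 of 13, where 5.85, 16.9 and 7.96% of all probes were called, and 1 or both F3 probes and Plaur were lower in the TME in all 3 cell types. With ET replicate 2 left out as well, the counts were 4, 3 and 4 (5.79, 17.7 and 8.98% of all probes), and Plaur no longer passed in ET minus EC.

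**Figure D1:**
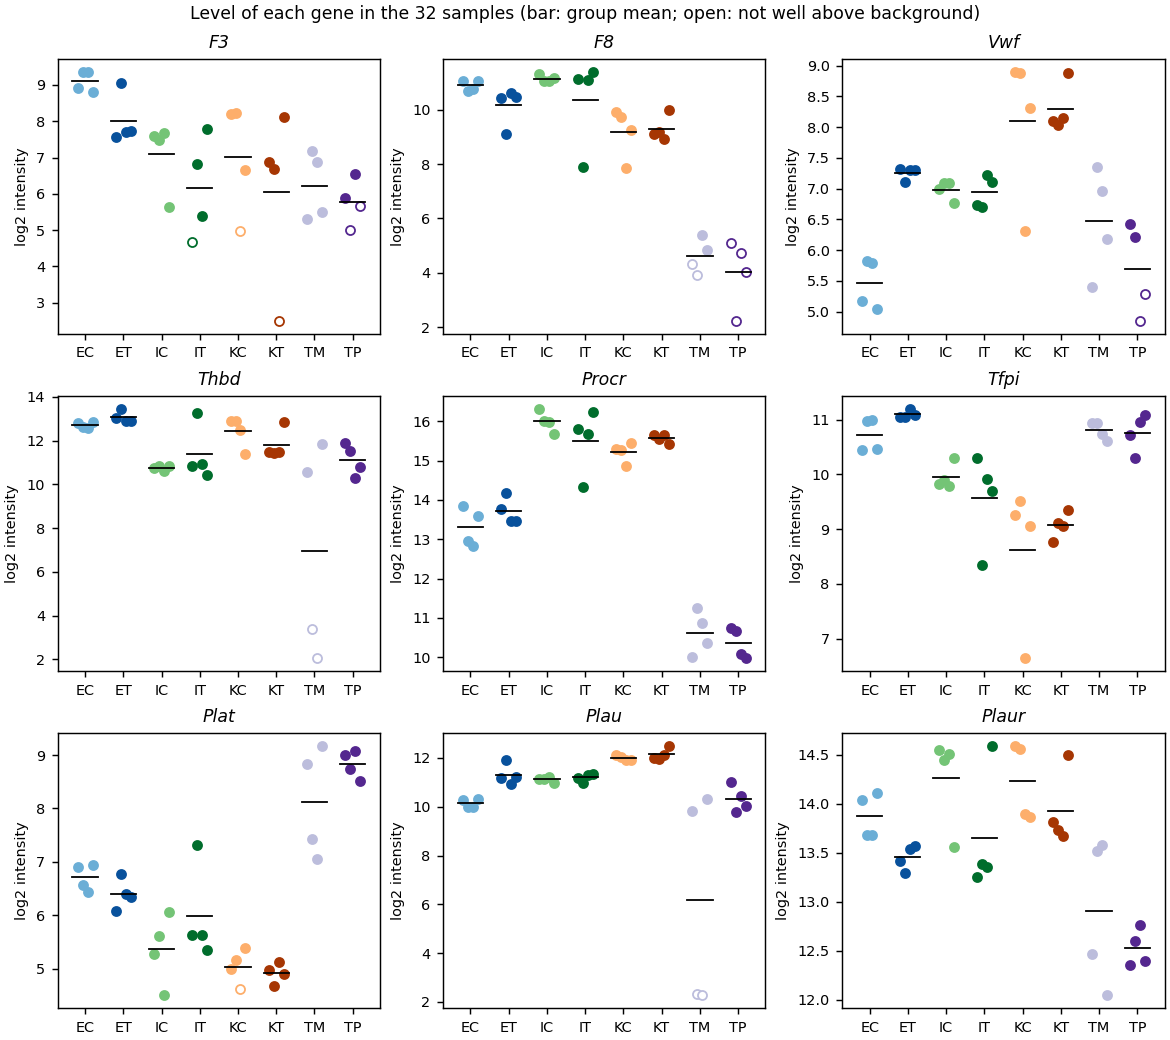
Log2 intensity of the 9 genes (the probe with the highest variance for each) in the 32 samples by group; points are samples in replicate order, bars are group means and open points are not well above background. Vwf separates ET from EC, Procr is lowest among liver cells in EC and ET, and F8 and Procr are lowest in the tumor cells, while Thbd and Plau split the 4 TM samples.

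Control cell types differed more. In EC minus IC 4 of 13 probes were called, where 9.89% of all probes were: F3 and Plat were higher and Procr and Vwf lower in endothelial cells. In KC minus EC 7 of 13 probes were called (21.0% of all probes), with Procr and Vwf higher in Kupffer cells, and 1 F8 probe, Plat and all 3 Tfpi probes lower. In KC minus IC 4 of 13 were called (14.8% of all probes), namely 1 F8 probe and the 3 Tfpi probes, all lower in Kupffer cells. EC and IC shared slide and dye, whereas KC lay on the other slide, so slide and cell type cannot be told apart in the last 2 comparisons. The reduced set called 10, 9 and 7 of 13 probes, where 21.9, 27.2 and 20.8% of all probes were called.

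**Figure D2:**
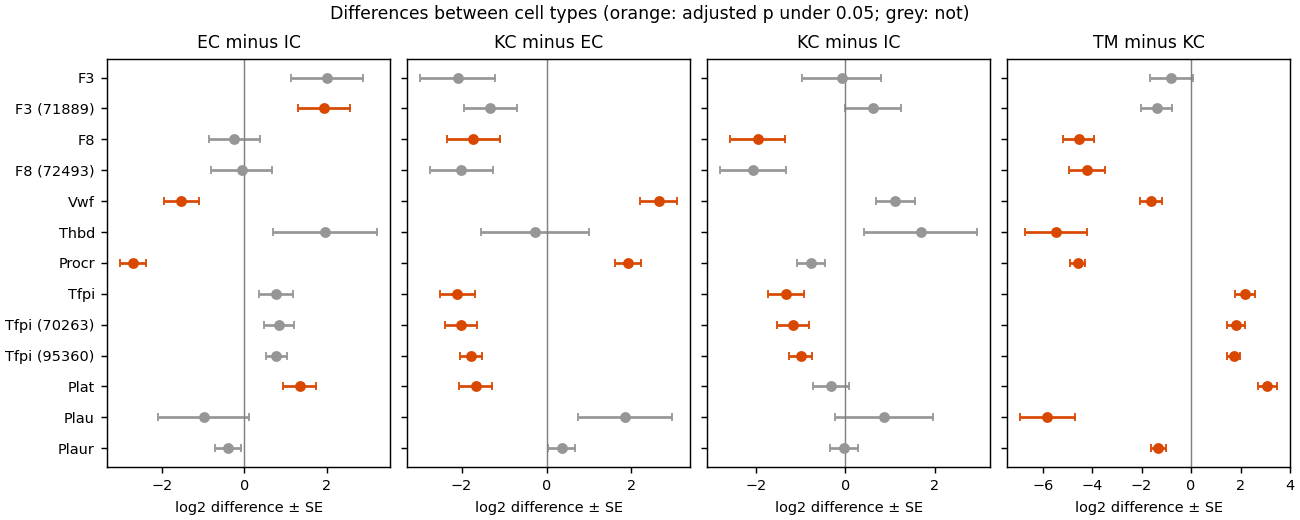
Log2 differences with their standard errors for the 13 member probes (further probes of a gene by the end of their ID) between control cell types and between TM and KC. Orange points passed an adjusted p of 0.05; Procr and Vwf change sides between EC minus IC and KC minus EC, and Plat and Tfpi are the members higher in TM.

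F3, the trigger of clotting, had higher readings in control endothelial than in control Ito cells, and 1 of its 2 probes passed the test. Probe A_65_P08971 stood at 8.92, 9.37, 9.36 and 8.796 in EC and at 7.58, 7.49, 7.69 and 5.64 in IC. The groups did not overlap, and the difference of 2.01 ± 0.88 (SE) did not pass (adjusted p = 0.175). Probe A_55_P1971889 stood at 12.01, 12.31, 12.45 and 12.04 in EC and at 10.77, 10.89, 10.92 and 8.50 in IC, also with no overlap, and its difference of 1.93 ± 0.63 passed (3.81-fold, adjusted p = 0.0498). This call was lost without any 1 replicate number (adjusted p = 0.0943 to 0.171), without the Ito and Kupffer arrays of number 4 (1.34, 0.128), with the scanner's processed signal (0.0514), in a fit of only the groups compared (0.0610) and in the methods' t-test (0.105). KC ranged from 4.97 to 8.23 on A_65_P08971 and from 9.90 to 11.66 on A_55_P1971889 and did not pass the test against EC or IC on either probe.

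In the TME the levels on probe A_65_P08971 were 7.57, 9.06, 7.69 and 7.74 in ET, so 3 of 4 samples lay below every EC sample and ET replicate 2 lay among them. In IT they were 4.66, 6.83, 5.40 and 7.78. In KT they were 6.87, 6.69, 2.49 and 8.12, against 8.20, 8.23, 4.97 and 6.66 in KC, where KT and KC replicates 3 were not well above background. The differences of -1.10 (ET minus EC), -0.93 (IT minus IC) and -0.97 (KT minus KC) did not pass (adjusted p = 1, 0.792 and 0.905). The other probe gave -1.17 ± 0.63, -0.96 and -0.71, which did not pass either (adjusted p = 0.759, 0.632 and 0.899). On the arrays numbered 1 to 3 F3 read lower in the TME than in the control channel on both probes in all 3 cell types. On number 4 it was lower in endothelial cells and higher in the other 2 cell types. The 2 probes share these arrays, and the share of all probes with such a pattern is not given here. These directions are therefore a description only. With the reduced set A_65_P08971 gave -1.10 in ET (adjusted p = 0.532), -2.56 in IT (0.0491) and -2.86 in KT (0.0483), and A_55_P1971889 gave -1.17 (0.0404), -2.75 (0.000163) and -1.72 (0.0157). For ET this set removes no sample and only changes the spread that the groups share, and with ET replicate 2 left out as well the 2 probes gave -1.45 (adjusted p = 0.36) and -1.51 (0.00308).

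Plaur, the urokinase receptor, ran one way on arrays 1 to 3 of Ito and Kupffer cells and the other way on array 4. Its levels were 14.55, 14.45, 14.51 and 13.56 in IC and 13.25, 13.39, 13.35 and 14.59 in IT, so that replicate 4 of each group lay nearest to the samples of the other, and IT replicate 2, with high F3 for its group, lay among the low Plaur samples. KC had 14.59, 14.56, 13.90 and 13.87, and KT had 13.82, 13.73, 13.67 and 14.49. In endothelial cells all 4 ET samples (13.41, 13.29, 13.54 and 13.57) lay below all 4 EC samples (14.03, 13.68, 13.68 and 14.11), a difference of -0.42 ± 0.31 (adjusted p = 1). In the reduced set Plaur was lower by -0.42 in ET (adjusted p = 0.0459), -1.20 in IT (3.18e-05) and -0.84 in KT (0.0023), and with ET replicate 2 left out as well the ET difference of -0.36 did not pass (adjusted p = 0.126). For Ito and Kupffer cells the reduced set leaves out the array that ran the other way, and it holds 2 IT and 3 IC samples. The fall was smaller in endothelial than in Ito cells by 0.78 in that set (adjusted p = 0.0170 for the interaction, with 8.56% of all probes called). With all 32 samples no member passed in any of the 3 interactions, where 0.111, 0.0808 and 0.00359% of all probes did. At an unadjusted p under 0.05 they had 1, 1 and 0 member probes, where 4.45, 3.88 and 4.13% of all probes passed.

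The neutrophil markers ran opposite to F3 and Plaur in several of these groups, though not in every sample. Their summed level was 9.82 to 10.28 in EC and 11.88 to 13.01 in ET. In IC it was 10.36 to 10.52 in replicates 1 to 3 and 13.87 in replicate 4, and in IT 13.06 to 14.29 in replicates 1 to 3 and 10.71 in replicate 4. In KC it was 11.60 to 12.01 in replicates 1 to 3 and 13.74 in replicate 4, and in KT 13.44 to 13.54 and 11.72. IT replicate 2 had the highest sum in IT (14.29), with F3 at 6.83 against 4.66 and 5.40 in IT replicates 1 and 3 (A_65_P08971). ET replicate 2 had the highest sum in ET (13.01) and the highest F3 in ET (9.06). None of the 8 neutrophil markers passed in ET minus EC, IT minus IC or KT minus KC with all samples. Their part in the F3 and Plaur differences was not tested.

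**Figure D3:**
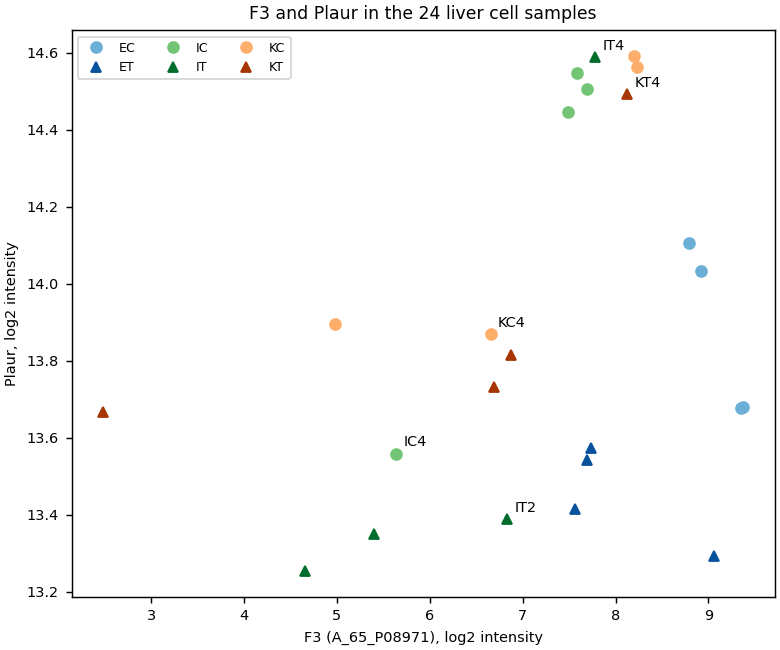
F3 (probe A_65_P08971) against Plaur in the 24 liver cell samples, both as log2 intensity; circles are control and triangles TME samples. IT4 and KT4 lie with the control samples of their cell type and IC4 near IT replicates 1 and 3, and the Kupffer samples at 4.97 and 2.49 and the Ito sample at 4.66 were not well above background for F3.

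**Figure D4:**
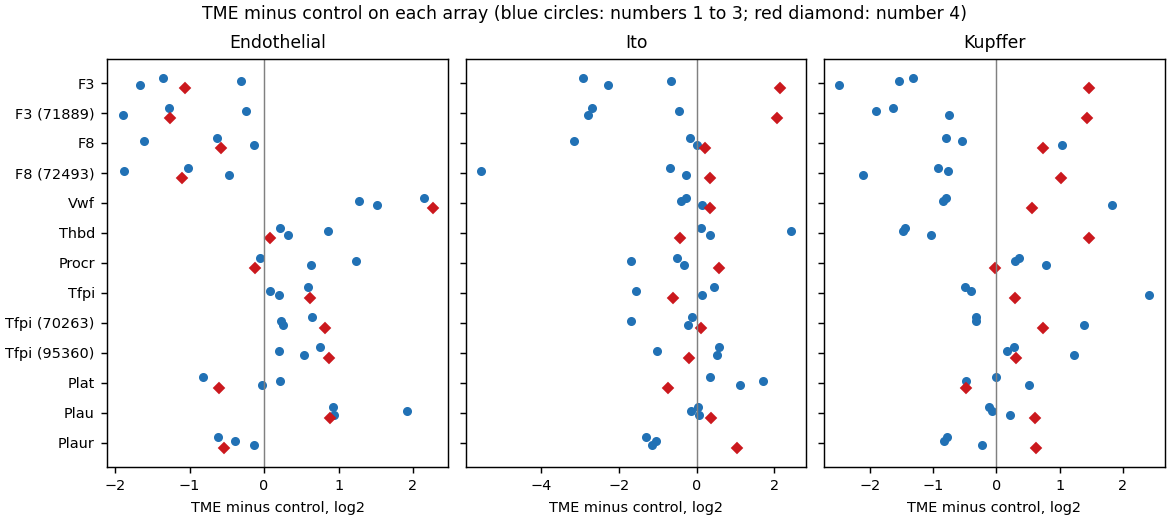
TME minus control difference in log2 intensity on each array for the 13 member probes (further probes by the end of their ID), by cell type; blue circles are arrays 1 to 3 and red diamonds array 4. Both F3 probes and Plaur are below 0 on all arrays of endothelial cells and on numbers 1 to 3 of Ito and Kupffer cells, and above 0 on number 4 of the latter cell types.

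The promoters of F3 and Plaur are shown because both genes were lower in the TME in the reduced set. They are the 250 bases before the start in RefSeq on build GRCm38.p6, at chr3:121723287-121723536 (plus strand) and chr7:24462233-24462482 (plus strand). Capitals mark matches, on either strand, to the AP-1 motif TGANTCA, the GC box GGGCGG and the motif CACCC. Of 32851 promoter stretches of this length, 6.75% hold the first, 32.7% the second and 52.0% the third. RefSeq promoters were matched for 5 of the 9 genes.
F3: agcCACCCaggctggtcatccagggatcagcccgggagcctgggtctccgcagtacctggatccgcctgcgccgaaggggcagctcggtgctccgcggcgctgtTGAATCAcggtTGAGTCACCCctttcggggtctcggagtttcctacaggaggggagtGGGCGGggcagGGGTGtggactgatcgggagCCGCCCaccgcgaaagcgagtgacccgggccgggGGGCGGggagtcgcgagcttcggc
Plaur: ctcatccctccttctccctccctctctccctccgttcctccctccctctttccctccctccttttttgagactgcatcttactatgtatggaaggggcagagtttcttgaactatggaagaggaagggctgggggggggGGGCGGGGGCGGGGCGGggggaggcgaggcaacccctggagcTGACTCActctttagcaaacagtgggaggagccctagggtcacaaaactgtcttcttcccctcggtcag
F3 held the AP-1 letters 2 times, with the first base 146 and 135 bases before the start, the nearer one overlapping a CACCC match. It held 3 GC boxes and 3 CACCC matches. Plaur held the AP-1 letters once, 69 bases before the start, and 3 adjoining GC boxes, of which the last 2 overlap. Of the other matched genes Procr, which passed in no TME minus control comparison, held the AP-1 letters as well, 154 bases before the start. F8 and Tfpi did not hold them. A match describes letters and not a bound site.

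Tfpi, the inhibitor of the tissue factor complex, was lower in control Kupffer cells than in control endothelial cells. It was also called lower than in control Ito cells, though those calls depended on the alternative. On probe A_66_P132295 it stood at 10.45, 10.97, 10.99 and 10.46 in EC, at 9.83, 9.89, 9.78 and 10.30 in IC and at 9.26, 9.51, 6.64 and 9.05 in KC. None of the 3 groups overlapped. KC was lower than EC by -2.10 ± 0.41 (4.29-fold, adjusted p = 0.000421) and lower than IC by -1.33 ± 0.41 (adjusted p = 0.0275). The other probes gave -2.01 and -1.78 against EC. EC minus IC was 0.77, 0.84 and 0.78 on A_66_P132295, A_52_P670263 and A_55_P2095360 and did not pass on any of them (adjusted p = 0.305, 0.178 and 0.0571), while in the reduced set it was 0.88, 0.81 and 0.91 and passed on all 3 (0.00125, 0.00222 and 0.000415). KC replicate 3 was the lowest sample on all 3 probes. Without it alone KC minus IC was -0.67, -0.78 and -0.75, and only the last passed (adjusted p = 0.139, 0.155 and 0.0487), and KC minus EC was -1.44 to -1.62 with all 3 passing. In the same probe order, KC minus IC passed under 11, 12 and 16 of 20 alternatives. KC minus EC passed under 19, 20 and 20. In the TME all 3 probes were higher in ET than in IT by 1.39 to 1.79 and lower in KT than in ET by -1.87 to -2.13, and all passed. KT minus IT was -0.49, -0.33 and -0.48, with overlap, and did not pass (adjusted p = 0.498, 0.638 and 0.242, where 15.2% of all probes were called). All 3 probes were higher in every ET than every EC sample, with differences of 0.38 to 0.59 of which none passed with all samples. Without ET replicate 2 alone the differences were 0.39 to 0.65, and none passed. The probe A_55_P2095360 passed in the reduced set (0.59, adjusted p = 0.0255), and also with ET replicate 2 left out of that set (0.65, 0.0211).

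Vwf, the platelet tether, was lowest in control endothelial cells and higher in TME endothelial cells. The levels were 5.18, 5.83, 5.79 and 5.04 in EC and 7.32, 7.11, 7.30 and 7.31 in ET, with no overlap. The difference was 1.80 ± 0.44 (3.48-fold, adjusted p = 0.0349 with limma, and p = 0.0286 in an exact two-sided permutation test, the smallest that 4 against 4 samples allow). The call was lost without replicate number 1, 2 or 4 of every group (adjusted p = 0.308, 0.101 and 0.365), with differences of 1.64 to 1.97. It was also lost without ET replicate 2 alone (1.85, adjusted p = 0.0661), with a fixed replicate block for each array (1.80, 0.114) and under normexp with quantile normalization (0.90, 0.133), though not under normexp with loess and Aquantile (1.06, 0.0161). No other processing alternative ended it. IT minus IC was -0.04, and the rise was larger in endothelial than in Ito cells by 1.84 ± 0.62, which did not pass (adjusted p = 0.622). In the reduced set this interaction was 1.88 (adjusted p = 0.0138), and KT minus KC was lower than ET minus EC by -2.60 (adjusted p = 0.00393, with 2.48% of all probes called).

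Among the other cell types, Vwf stood at 6.99, 7.09, 7.09 and 6.78 in IC and at 8.91, 8.88, 6.32 and 8.32 in KC. EC was lower than IC by -1.52 ± 0.44 (adjusted p = 0.0238), a call lost without replicate number 1, 2 or 4 (adjusted p = 0.118, 0.0775 and 0.129) and under normexp with quantile normalization (-0.71, 0.108). KC was higher than EC by 2.65 ± 0.44 (adjusted p = 5.85e-05), by 3.24 without KC replicate 3 and by 3.43 in the reduced set. The KC minus IC difference of 1.12 did not pass with all samples and was 1.84 in the reduced set (adjusted p = 0.000969). Among the control cells, those with the endothelial label had the lowest reading of this gene. The summed level of the 9 platelet markers was 13.39 to 13.63 in EC and 14.19 to 14.51 in ET. The number of them well above background did not rise alike. It was 7, 6, 5 and 6 in EC replicates 1 to 4 and 5, 7, 5 and 5 in ET. Gp1ba was at background in every EC and ET sample, and Gp1bb in every ET sample. None of the 9 markers passed in ET minus EC. Their part in the Vwf difference was not tested.

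F8, the factor VIII gene, showed no called difference between endothelial and Ito cells, was lower in Kupffer cells and was at or near background in tumor cells. On probe A_51_P289239 the levels were 11.07, 10.702, 10.76 and 11.06 in EC, 11.29, 11.04, 11.06 and 11.18 in IC and 9.90, 9.71, 7.86 and 9.24 in KC. EC minus IC was -0.24 ± 0.61 and did not pass. KC was lower than EC by -1.72 ± 0.61 (3.29-fold, adjusted p = 0.0465) and lower than IC by -1.96 ± 0.61 (adjusted p = 0.0299). Without KC replicate 3 alone these were -1.28 (adjusted p = 0.183) and -1.52 (0.127), and both calls were also lost without replicate number 1 (0.121 and 0.108), 3 (0.289 and 0.248) or 4 (0.176 and 0.127) and in the methods' t-test (0.0554 and 0.0578). The call against EC was not made by this probe in the reduced set, where the probe A_55_P2072493 was called in its place (-1.999, adjusted p = 0.00122). In the TME every ET sample was below every EC sample on both probes (by 0.74 and 1.12 in the mean), and neither passed (adjusted p = 1 and 0.949). Without ET replicate 2 alone, the lowest ET sample on both probes, the differences were -0.39 and -0.81, and neither passed. IT replicate 2 stood at 7.88 and 3.74 on the 2 probes, against at least 11.08 and 8.81 in the other IT samples.

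Thbd, thrombomodulin, had higher readings in every control endothelial than every control Ito sample and did not pass with all samples. EC stood at 12.83, 12.61, 12.57 and 12.83 and IC at 10.73, 10.83, 10.60 and 10.83. The difference was 1.96 ± 1.27 (adjusted p = 0.43), with a standard error raised by the split within TM described next. In the reduced set it was 1.99 (adjusted p = 8.34e-05). KC had 12.92, 12.92, 12.50 and 11.38 and KT 11.47, 11.45, 11.47 and 12.86, so that KC replicate 4 lay near KT replicates 1 to 3 and KT replicate 4 near KC replicates 1 and 2. The difference was -0.62 (adjusted p = 0.999), and -1.46 in the reduced set (adjusted p = 0.0179).

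Procr, the protein C receptor, was lowest among liver cells in the endothelium. EC stood at 13.83, 12.94, 12.84 and 13.58, IC at 16.32, 16.01, 15.99 and 15.66, and KC at 15.29, 15.26, 14.86 and 15.45. EC was lower than IC by -2.70 ± 0.31 (6.49-fold, adjusted p = 1.65e-06) and KC was higher than EC by 1.92 ± 0.31 (adjusted p = 4.99e-05). Both calls held under all 20 alternatives, from -2.90 to -2.55 and from 1.79 to 2.07. KC minus IC was -0.78 and did not pass. In the TME ET was lower than IT by -1.79 (adjusted p = 0.000377, 8.26% of all probes called in ET minus IT) and KT higher than ET by 1.85 (adjusted p = 6.87e-05, 21.8% called in KT minus ET), while KT and IT overlapped (0.06, adjusted p = 0.943). Procr did not pass in any TME minus control comparison. The hepatocyte markers moved with Procr between EC and IC, with summed levels of 14.15 to 14.31 and 16.58 to 18.43. In KC they spanned 13.57 to 15.67. Their part was not tested.

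Plat, tissue-type plasminogen activator, was higher in control endothelial cells than in the other control liver cells. EC stood at 6.90, 6.56, 6.43 and 6.94, IC at 5.27, 5.61, 4.499 and 6.07, and KC at 4.99, 5.16, 4.62 and 5.39. EC was higher than IC by 1.35 ± 0.40 (2.54-fold, adjusted p = 0.0292), a call lost without replicate number 1 or 3 (adjusted p = 0.209 and 0.173) under normexp with quantile normalization (0.68, 0.113) or with loess and Aquantile (0.69, 0.0932) and in the methods' t-test (0.065). KC was lower than EC by -1.67 ± 0.40 (adjusted p = 0.00282). In the TME KT was lower than ET by -1.48 (adjusted p = 0.00734), and ET minus IT was 0.42 with overlap and did not pass (adjusted p = 0.641). No TME minus control difference of Plat passed, in the reduced set either.

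Plau, urokinase, was higher in every ET than every EC sample. The levels were 10.27, 9.99, 9.998 and 10.32 in EC and 11.20, 11.90, 10.93 and 11.21 in ET, a difference of 1.17 ± 1.10 (adjusted p = 1). As for Thbd, the error shared across groups was raised by TM replicates 2 and 3. Without these 2 samples alone the same difference had an adjusted p of 0.00232. Without ET replicate 2 alone ET minus EC was 0.97 and did not pass. It passed in the reduced set with ET replicate 2 left out as well (0.97, adjusted p = 0.00719). In IC Plau stood between 10.99 and 11.23 and in KC between 11.90 and 12.13, and the order EC, IC, KC had no overlap. EC minus IC (-1.03, adjusted p = 0.00314) and KC minus EC (1.94, adjusted p = 1.91e-05) passed in the reduced set.

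The tumor cells stood apart from Kupffer cells, the liver cell type on the same slide and with the same dyes. In TM minus KC 11 of 13 probes were called, where 39.4% of all probes were, with Plat and Tfpi higher and F8, Plau, Plaur, Procr, Thbd and Vwf lower. In TP minus KT 9 of 13 were called (43.6% of all probes), with the same signs for all probes called in both. These comparisons set tumor cells against cultured liver cells, and the macrophage markers fell with the members: 9 of 9 were lower in TM than KC. Their summed level was 7.69 to 9.93 in TM and 16.19 to 18.96 in KC. Their part was not tested.

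Plat read higher in tumor cells than in Kupffer cells, at 8.84, 7.44, 7.05 and 9.18 in TM and 8.996, 8.74, 9.09 and 8.51 in TP. TM was higher than KC by 3.09 ± 0.40 (8.51-fold, adjusted p = 2.76e-07), and TP was higher than KT by 3.91 (adjusted p = 3.87e-09). No tumor sample overlapped a liver cell sample of those groups. Tfpi was also higher, by 1.73 to 2.19 in TM and by 1.26 to 1.69 in TP on its 3 probes, with levels of 10.61 to 10.94 in TM on probe A_66_P132295 that lay within the range of EC (10.45 to 10.99). Without KC replicate 3 alone TM minus KC was 1.43 to 1.53. The reduced set gave 1.39, 0.64 and 1.42 on A_66_P132295, A_52_P670263 and A_55_P2095360, and all 3 passed.

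Procr stood at 10.02, 11.25, 10.87 and 10.37 in TM and at 10.73, 10.68, 10.08 and 9.97 in TP. It was lower in TM than KC by -4.59 ± 0.31 (24.1-fold, adjusted p = 1.87e-12) and lower in TP than KT by -5.21 (adjusted p = 1.37e-13). F8 was well above background in 2 of 4 TM and 0 of 4 TP samples on probe A_51_P289239, and in none of the 8 tumor samples on probe A_55_P2072493. It was at least 8.18-fold lower in TP than KT on the first probe (adjusted p = 4.34e-08), and on the second at least 2.88-fold lower in TM than KC (adjusted p = 2.86e-05) and at least 1.92-fold lower in TP than KT (adjusted p = 4.33e-05). These bounds compare the brighter group's mean with the background floor of the dimmer group after loess and Aquantile normalization. The adjusted p-values beside them come from the limma fit of the deposited values and do not test the bounds.

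Thbd and Plau split the 4 TM samples. Thbd stood at 10.55, 3.40, 2.04 and 11.87 in TM and at 11.88, 11.54, 10.28 and 10.81 in TP. Plau stood at 9.84, 2.31, 2.26 and 10.31 in TM and at 10.998, 9.78, 10.43 and 10.05 in TP. Neither gene was well above background in TM replicates 2 and 3, and both were in replicates 1 and 4. Plau was the one member called in TP minus TM, 1 of 13 where 3.01% of all probes were called, at 4.14 ± 1.10 (adjusted p = 0.0364). Without TM replicates 2 and 3 this difference was 0.24 (adjusted p = 1). TM replicates 2 and 3 also had higher F3 (7.17 and 6.87 against 5.31 and 5.49 on A_65_P08971), Plaur (13.52 and 13.57 against 12.47 and 12.05) and Vwf (7.35 and 6.96 against 5.399 and 6.19), and lower Plat (7.44 and 7.05 against 8.84 and 9.18). In the reduced set all 13 probes were called in TM minus KC (40.9% of all probes), Thbd at -1.71 and Plau at -2.01. With only TM replicates 2 and 3 left out, Thbd in TM minus KC was -1.22 and did not pass (adjusted p = 0.113). In a fit of only TM and KC neither Thbd nor Plau passed (adjusted p = 0.124 and 0.0735).

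Other genes of the pathway were read from a list of 50 genes with 68 probes. In ET minus EC 3 of 68 probes were lower and 0 higher, where 1.14% of all probes were called, and the median difference was -0.18 against 0.01 for all probes. They were Asgr2 (-1.59 ± 0.29, adjusted p = 0.00318) and Asgr1 (-1.58 ± 0.39, 0.0362), the subunits of the hepatocyte asialoglycoprotein receptor, and F12 (-1.18 ± 0.29, 0.0355), which codes for factor XII. Without ET replicate 2 alone Asgr2 still passed (-1.67, adjusted p = 0.0064), and F12 (-1.24, 0.0601) and Asgr1 (-1.59, 0.0793) did not. Of the 10 hepatocyte markers, 3 were lower in ET than EC as well, with summed levels of 13.26 to 14.53 in ET. In IT minus IC and in KT minus KC no probe of the list passed, and the medians were 0.13 and 0.10. Between control cell types, 31 of 68 probes were lower and 8 higher in EC than IC, where 9.89% of all probes were called, with a median of -0.56 against -0.01 for all probes. The largest falls were those of plasma proteins made by hepatocytes, Serpinf2 (alpha 2-antiplasmin, -4.23 ± 0.34, adjusted p = 5.37e-09), Plg (plasminogen, -3.95 ± 0.47, 2.74e-06) and Serpind1 (heparin cofactor II, -3.77 ± 0.52, 1.94e-05). The largest rises were those of Nos3, the endothelial nitric oxide synthase, on its 2 probes (3.43 and 3.35) and of F2r, the thrombin receptor (2.36 ± 0.22, adjusted p = 7.93e-08). In TM minus KC 37 of 68 were lower and 7 higher, where 39.4% of all probes were called, with a median of -1.72 against 0.08.

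By likeness of pattern over the 32 samples, the genes nearest to F8 were Smim9 (r = 0.98), Sepp1 (0.98) and Plagl1 (0.97). Nearest to Procr were Sh3bgrl2 (0.98), Klkb1 (0.97) and Tmem178 (0.97), and nearest to Plat were Csrp2, Prrx1 and Efemp2 (0.96 each). Thbd was nearest to Gprc5b (0.93), Tmem159 (0.93) and Lysmd2 (0.92), and Plau to Jag1 (0.98), 1500011B03Rik (0.97) and Eif2c4 (0.96). Plaur was nearest to Tgoln2 (0.93), Apol7b (0.93) and D8Ertd82e (0.92), Tfpi to Wbp5 (0.96), Sep15 (0.93) and Cetn3 (0.91), Vwf to Mfsd12 (0.87), Dip2b (0.86) and Fam53c (0.86), and F3 to Map2 (0.82), Phc2 (0.81) and Kcnq5 (0.77). These correlations include the contrast of tumor with liver samples, and the listed pairs depended on it to different degrees. Over the 24 liver cell samples alone Thbd and Tmem159 had the lowest r of the listed pairs, 0.39. The other pairs ranged from 0.71 (Plau and 1500011B03Rik) to 0.97 (F8 and Smim9). Among the members themselves, Vwf and Plau had r = 0.87 over the 24 liver cell samples, and Thbd and Procr r = -0.77, on groups that differ in cell type and slide.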

How the data were processed

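The 16 two-colour Agilent arrays were scanned by the authors with Feature Extraction 10.7.3.1, and the deposited scanner files hold intensities per spot and channel. The authors also deposited a table of linear intensity values per probe and sample, which follows the quantile-normalized processed signal of each channel (the study's methods name quantile normalization). Here the log2 of that table was fitted with limma 3.58.1 (lmFit, eBayes) in R 4.3.3 to 8 groups of 4 samples, with Benjamini-Hochberg adjustment over 55681 probes. Groups, dyes and replicate numbers come from the labels, and background flags and the alternative signals from the scanner files. The probe of highest variance over 32 samples stands first for a gene. Further pathway genes are named where called, well above background in the higher group and among the 3 largest rises or falls, and genes like a member by Pearson's r. The members and lists were chosen with earlier results of these data known. The study's methods state 4 biological replicates, and the labels do not tie samples to animals, so p-values measure the spread between these samples. Same-numbered samples share an array. Over all probes their deviations from group means correlated at 0.12 to 0.52 on 14 arrays and at -0.29 and -0.20 on array 4 of Ito and Kupffer cells. Over the 17104 probes well above background in every sample, r was -0.33 to 0.40 on those 14 arrays. On array 4 of Ito and Kupffer cells it was -0.64 and -0.57. The numbers were therefore not taken to pair all samples. The deposited intensity has no read depth. The number of arrays limits the precision. The fit was tested on simulated data. The alternatives were other signals and normalizations, a filter on dim probes, fits of only the groups compared, replicate blocks, the methods' t-test, an intensity trend, stricter thresholds, and leaving out replicates.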

Additional observations from a re-analysis of the deposited data

Results flagged for a closer look

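In 21 of 104 groups of 4 samples, 1 sample lay far from the other 3 by Dixon's test of the gap over the range, where chance gives about 1 in 20. TME endothelial replicate 2 accounted for 4: F3 at 12.06 and 9.06 on its 2 probes, F8 at 9.09 and Vwf at 7.11, which is 0.19 below the next sample. Control Ito replicate 4 was low for F3 (8.50 and 5.64) and Plaur (13.56), and TME Ito replicate 4 was high for Plaur (14.59). TME Kupffer replicate 4 was high for F3 (11.34), Vwf (8.88), Thbd (12.86) and Tfpi (8.18 on A_52_P670263). TME Ito replicate 2 was low for F8 (7.88 and 3.74) and Tfpi (6.85 and 7.60 on A_52_P670263 and A_55_P2095360) and high for Plat (7.32). Control Kupffer replicate 3 was low for Tfpi (6.64 and 6.97 on A_66_P132295 and A_55_P2095360). Control Ito replicate 3 was high for Tfpi (8.80 on A_52_P670263), and CRC primary replicate 3 had F8 at 3.69 on A_55_P2072493, not well above background.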

How the results depend on the processing

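The number of member probes called (main counts 1, 0, 0, 1, 4, 7, 4 and 11 for ET minus EC, IT minus IC, KT minus KC, TP minus TM, EC minus IC, KC minus EC, KC minus IC and TM minus KC) changed as follows. With an adjusted p under 0.001 and at least 4-fold the counts were 0 for ET minus EC, 0 for TP minus TM, 1 for EC minus IC, 3 for KC minus EC, 0 for KC minus IC and 7 for TM minus KC. The share of all probes at this stricter threshold is not given here, so these counts are not set against it. Fits of only the groups compared called 2 in ET minus EC, 0 in TP minus TM and 9 in EC minus IC, where 5.29, 0.487 and 13.6% of all probes were called (1.14, 3.01 and 9.89% with all groups). The methods' t-test called 0 in TP minus TM, 2 in KC minus IC and 5 in TM minus KC after Benjamini-Hochberg adjustment (0.361, 8.2 and 31.1% of all probes), and at the methods' stricter threshold on both fold and adjusted p it called 1 member probe in TM minus KC and 0 in each of the other 7 comparisons. In ET minus EC normexp with quantile normalization called 0 (1.24% of all probes). In TP minus TM normexp with loess and the 75th percentile called 0 (1.02 and 0.853%). A fixed replicate block called 0 in ET minus EC (0.697% of all probes). A random replicate block gave 3 in EC minus IC (9.76%), where F3 probe A_55_P1971889 had adjusted p = 0.0565 (0.0498 without the block). The random block left the other 7 counts as they were. Leaving out each replicate number in turn gave 0 to 1 for ET minus EC, 0 to 2 for IT minus IC, 0 to 2 for TP minus TM, 1 to 2 for EC minus IC and 0 to 5 for KC minus IC. In that order, the shares of all probes called were 0.327 to 0.909, 0.154 to 7.83, 0.95 to 4.44, 4.68 to 10.5 and 7.67 to 13.5%. Of the alternatives chosen after seeing the data, leaving out Ito and Kupffer array 4 gave 2 in IT minus IC, 0 in TP minus TM and 1 in KC minus IC (7.66, 2.8 and 14.1% of all probes). Leaving out TM replicates 2 and 3 gave 2 in ET minus EC and 0 in TP minus TM (1.42 and 0.923% of all probes). Leaving out all of these with TME Ito replicate 2 and control Kupffer replicate 3 gave 5, 3, 4, 0, 10 and 7 for ET minus EC, IT minus IC, KT minus KC, TP minus TM, EC minus IC and KC minus IC. The shares of all probes were 5.85, 16.9, 7.96, 1.55, 21.9 and 20.8%. With ET replicate 2 left out too the counts were 4, 3, 4, 0, 10 and 6 (5.79, 17.7, 8.98, 1.6, 22.5 and 21.5% of all probes). Leaving out ET replicate 2 alone gave 0 in ET minus EC (0.932%). The causes were not tested. No call of a member probe changed its sign under any alternative. Scaling to the 75th percentile moved the median of all probes by -0.29 in EC minus IC and 0.50 in TM minus KC and turned no called direction. Signal near background limits F8 in the tumor cells and F3 probe A_65_P08971. Vwf in EC (5.04 to 5.83) was well above background but low, beside TP replicates 3 and 4 (4.84 and 5.29), which were not. Its ET minus EC difference ranged from 0.90 to 1.97 over the alternatives. Plat in KC was also low (4.62 to 5.39), with replicate 3 not well above background. Its KC minus EC difference ranged from -1.79 to -0.78.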
